A study of Populus cathayana with 4 samples.

Results

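GSTU20 and EF1Bgamma2 are 2 poplar genes whose best database hits in the deposited table are glutathione transferases. They are listed as Potri.008G175000.1 (tau class glutathione transferase GSTU20) and Potri.004G226300.1 (gamma class glutathione transferase EF1Bgamma2), 2 of the 19100 transcripts of the table. Both genes were chosen by their tag counts in the 4 libraries, all of which were used for the choice, so their levels and ratios are given as a description, with no test. The study measured leaves, the fourth full expanded ones, of male and of female plants of Populus cathayana, a poplar in which the sexes are separate, grown as potted cuttings in a greenhouse. The groups were males under decreased solar UV-B, males under ambient solar UV-B, females under decreased solar UV-B, and females under ambient solar UV-B, each exposed for 100 days. Decreased UV-B is called reduced UV-B here. Each group was 1 library, made from RNA of 9 plants pooled in equal shares, so the groups have no replicate error, and every interval covers counting error only.

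Glutathione transferases join the tripeptide glutathione to reactive compounds, such as oxidised lipids, which makes them more soluble and ready for transport into the vacuole. The tau class, to which GSTU20 belongs, is a large plant family with many stress-responsive members. The gamma class is different: EF1Bgamma is a structural subunit of translation elongation factor 1B, the complex that recharges elongation factor 1A with GTP, and it carries a glutathione transferase-like domain at its start. UV-B light forms reactive oxygen species in leaves, and glutathione is part of the cell's defence against them.

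Transcripts were counted through 17 bp tags next to NlaIII sites, with about 1 tag per transcript, and are given as CPM, the tag count per 1000000 tags of the library. Listed transcripts held 624926 to 722533 tags a library. This was 14.4% to 15.0% of all tags in 3 libraries and 17.2% in males under ambient UV-B. That last library also had the most transcripts at 0, 7001 against 5431 to 5948 elsewhere. With TMM scaling every log2 ratio of ambient over reduced UV-B in males is 0.21 lower than given here. The leaf marker list held 27 transcripts with at least 10 counts over the 4 libraries, 1 or 2 of them at 0 in each library, and summed to 6951 to 8687 CPM. The xylem list, laccases, had 7 such transcripts, of which 0 to 2 were at 0 in a library. It summed to 33.2 CPM under reduced and 22.8 CPM under ambient UV-B in males, and to 16.2 and 4.86 CPM in females. The epidermis and wax list, also with 7, of which 0 to 2 were at 0, summed to 23.8, 11.9, 19.1 and 8.32 CPM in the same order. The part of these cells in the ratios below was not tested, and fewer cells of a type cannot be told apart from less RNA per cell.

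GSTU20 was nearly absent from males under ambient UV-B and most frequent in females under the same light. Males had 131 tags under reduced UV-B, which is 30.6 CPM (exact Poisson 95% interval 25.6 to 36.3). Under ambient UV-B males had 3 tags, or 0.713 CPM (0.147 to 2.08). In females it had 21 tags under reduced UV-B, 4.78 CPM (2.96 to 7.31), and 155 under ambient UV-B, 35.8 CPM (30.4 to 41.9). The high and low libraries of the sexes were thus at opposite light levels. From the highest, the order was females under ambient UV-B, males under reduced UV-B, then females under reduced UV-B, and last males under ambient UV-B. The first pair in that order did not differ beyond counting error, with a log2 ratio of 0.23 (exact 95% interval -0.12 to 0.58). The last pair had a log2 ratio of 2.75, females under reduced over males under ambient UV-B, with a wide interval of 1.0 to 5.13 because of the 3 tags.

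**Figure D1:**
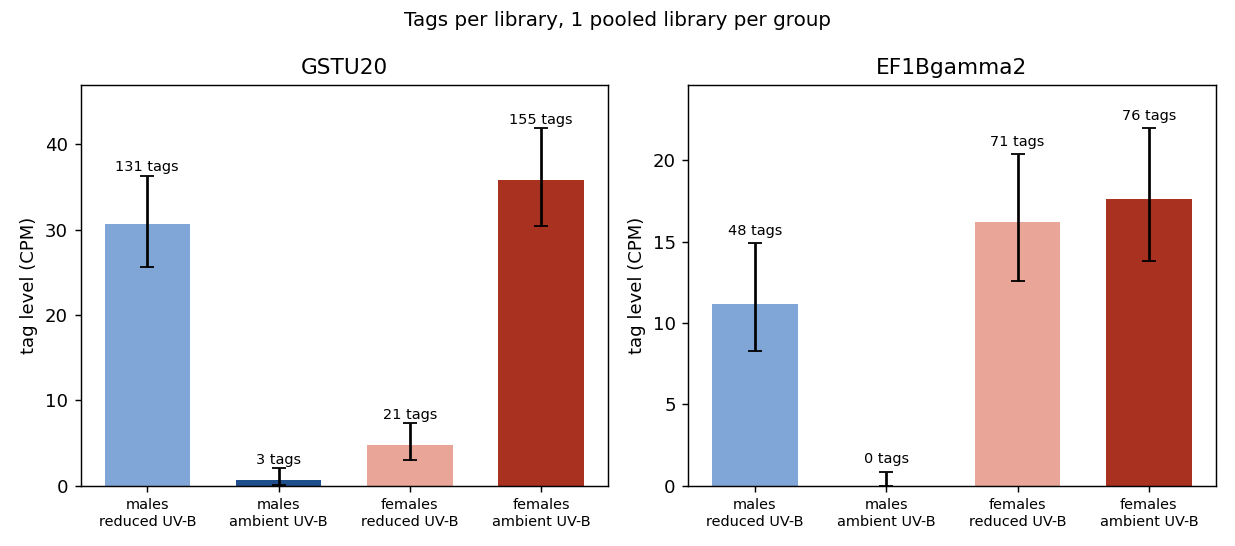
Tag level in CPM (y axis) of GSTU20 (left) and EF1Bgamma2 (right) in the 4 libraries (x axis), with exact Poisson 95% intervals as bars and the tag count above each. GSTU20 is high at 30.6 CPM in males under reduced and 35.8 in females under ambient UV-B, while EF1Bgamma2 lies between 11.2 and 17.6 CPM except for 0 in males under ambient UV-B.

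In males GSTU20 was 42.9-fold lower under ambient than under reduced UV-B, a log2 ratio of -5.42 with an exact counting interval from -7.72 to -3.84. Of the 10741 transcripts with at least 10 counts over the 4 libraries, called tested below, 2 had a ratio this low, itself included, with counts of 0 set at 3 tags. In females it was 7.50-fold higher under ambient UV-B, with a log2 ratio of 2.91 (interval 2.24 to 3.64), and 36 tested transcripts, itself included, reached that ratio. The female ratio over the male ratio was 8.33 on the log2 scale (interval 6.51 to 10.69), and it was the 1 tested transcript at this value or above. Ratios of at least 2-fold, counting any listed 0 against a higher count as one, were common at these depths: 15.6% of tested transcripts were at least 2-fold lower in males and 16.4% at least 2-fold higher in females.

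The 2 sexes also differed at each light level, in opposite directions. Under reduced UV-B, GSTU20 was 6.40-fold lower in females than in males, a log2 ratio of -2.68 (interval -3.42 to -2.01), where 23.9% of tested transcripts were at least 2-fold lower. Under ambient UV-B it was 50.3-fold higher in females, a log2 ratio of 5.65 (interval 4.08 to 7.94), where 19.8% were at least 2-fold higher. These 4 ratios rest on the same 4 counts and are not separate evidence. Among 2859 transcripts with at least 50 counts in their highest library, 3 were at least 4-fold lower in males and at least 4-fold higher in females under ambient UV-B, with counts of 0 set at 3 tags. GSTU20 was 1 of them. The opposite pattern, higher in males and lower in females, was met by 1 transcript.

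Of these 3 transcripts, GSTU20 and 1 other had a description, Potri.006G253500.1, an RNA-dependent RNA polymerase, of an enzyme class that acts in gene silencing. Its tag counts were 85 in males under reduced and 7 under ambient UV-B, and 3 and 38 in females. The last, Potri.006G042200.1, described as a predicted protein, had 403, 82, 5 and 20 tags in the same order. Both were named after their values were seen.

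EF1Bgamma2 was found in 3 libraries at 11.2 to 17.6 CPM and was listed at 0 in males under ambient UV-B. Males had 48 tags under reduced UV-B, 11.2 CPM (exact Poisson 95% interval 8.26 to 14.9). In females it had 71 tags under reduced UV-B, 16.2 CPM (12.6 to 20.4), and 76 under ambient UV-B, 17.6 CPM (13.8 to 22.0). No count of 1 occurs in any of the 4 libraries, so a listed 0 can stand for 0 or 1 tag. In the male library under ambient UV-B 3 tags, the floor used here for a count of 0, correspond to 0.713 CPM, and the exact Poisson upper limit of 0 tags is 0.877 CPM.

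With 3 tags set in place of 0, EF1Bgamma2 was 15.7-fold lower in males under ambient than under reduced UV-B, a log2 ratio of -3.97. The exact 95% interval of this ratio, which also takes in the counting error of the 48 tags, reached up to -3.62 and had no lower end. In females the log2 ratio of ambient over reduced UV-B was 0.12 (exact interval -0.37 to 0.61), within counting error of no difference. Under reduced UV-B, females over males gave a log2 ratio of 0.53 (interval -0.02 to 1.09), which also included 0, where 20.2% of tested transcripts were at least 2-fold higher. Under ambient UV-B, by the same floor, the gene was 24.6-fold higher in females, a log2 ratio of 4.62 with an exact lower limit of 4.29. By that floor, the female UV-B ratio lay 4.10 above the male ratio on the log2 scale, with an exact lower limit of 3.66. The exact limits of ratios against males under ambient UV-B take the listed 0 as a true 0. They would be wider if a tag was present but not listed. The highest library, females under ambient UV-B, exceeded males under reduced UV-B by a log2 ratio of 0.65 (interval 0.11 to 1.2).

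A listed 0 beside such counts was rare. Of 1424 transcripts with at least 48 counts, the lowest other count of EF1Bgamma2, in each of the other 3 libraries, 1 was at 0 in males under ambient UV-B, and that was EF1Bgamma2. The same search found 1 of 1479 for females under ambient UV-B, 0 of 1537 for males under reduced UV-B and 0 of 1474 for females under reduced UV-B. The search used the gene's own counts as its limit and is a description.

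GSTU20 and EF1Bgamma2 shared the lowest value in males under ambient UV-B and the highest in females under ambient UV-B. The highest place was within counting error for both. For GSTU20 the log2 ratio over males under reduced UV-B was 0.23 (interval -0.12 to 0.58). For EF1Bgamma2 that over females under reduced UV-B was 0.12 (-0.37 to 0.61). The order was read from the genes' own counts, so the shares below are a description. The same order of lowest and highest library was met by 693 of the 10741 tested transcripts (6.45%), and by 109 of the 2859 (3.81%) with at least 50 counts in the highest library. It was met by 0 of the 14 other tested glutathione transferases, too few genes for a 0 to set them apart from those shares. The genes differed in females, where GSTU20 moved with the light level and EF1Bgamma2 did so by less than counting error. Their annotation also differed: GSTU20 carried the gene ontology function of lyase activity, and EF1Bgamma2 that of translation factor activity, with translation as its process and a protein complex as its component.

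The table held 21 other glutathione transferases, found by description: 15 of the tau class, 4 of the phi class, 1 lambda and 1 TCHQD. Of these, 14 passed the minimum of 10 counts over the 4 libraries. For them a call means an exact conditional binomial test with a Benjamini-Hochberg adjusted p under 0.001 over all tested transcripts and at least a 2-fold ratio. It compares libraries of 1 per group, not the conditions. In males 0 were called higher and 2 lower under ambient UV-B, where 2.46% and 1.46% of tested transcripts were called. Over all transcripts this was 264 higher and 157 lower, and TMM scaling turned the balance to 117 and 232. In females 0 and 0 were called, where the background was 1.46% and 1.52%. The median log2 ratio of the 14 was 0.30 in males and 0.16 in females with 0.5 added to each count, or 0.20 and 0.16 with counts of 0 set at 3 tags. For all tested transcripts it was 0.11 and 0.02, or 0.10 and 0.02.

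The lower calls in males were both of the tau class. GSTU52 (Potri.010G070900.1) had 92 tags in males under reduced and 37 under ambient UV-B, a log2 ratio of -1.29 (interval -1.88 to -0.72), with 4 tags in each female library. GSTU31 (Potri.011G140700.1) had 29 and 4 tags in males, a log2 ratio of -2.83 (interval -4.80 to -1.32), and was listed at 0 in both female libraries. Neither showed the rise of GSTU20 in females, but these counts are too low to exclude one. The female interval of GSTU52 was -2.40 to 2.45, and GSTU31 had no female ratio. GSTU24 (Potri.T149500.1) had 2 and 16 tags in females, a log2 ratio of 3.02 with an interval of 0.93 to 6.19, without a call, and 26 and 32 tags in males.

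Members of the family with the highest counts differed less with UV-B than GSTU20. GSTF1 (Potri.002G015100.1), of the phi class, had log2 ratios of 0.86 (interval 0.71 to 1.02) in males and -0.06 (-0.17 to 0.04) in females. GSTF4 (Potri.T035400.1), also phi class, had -0.69 (-0.84 to -0.54) in males and 0.44 (0.25 to 0.63) in females, the direction of GSTU20 at a smaller size. GSTU30 (Potri.011G140800.1), of the tau class, had 0.28 and 0.30.

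**Figure D2:**
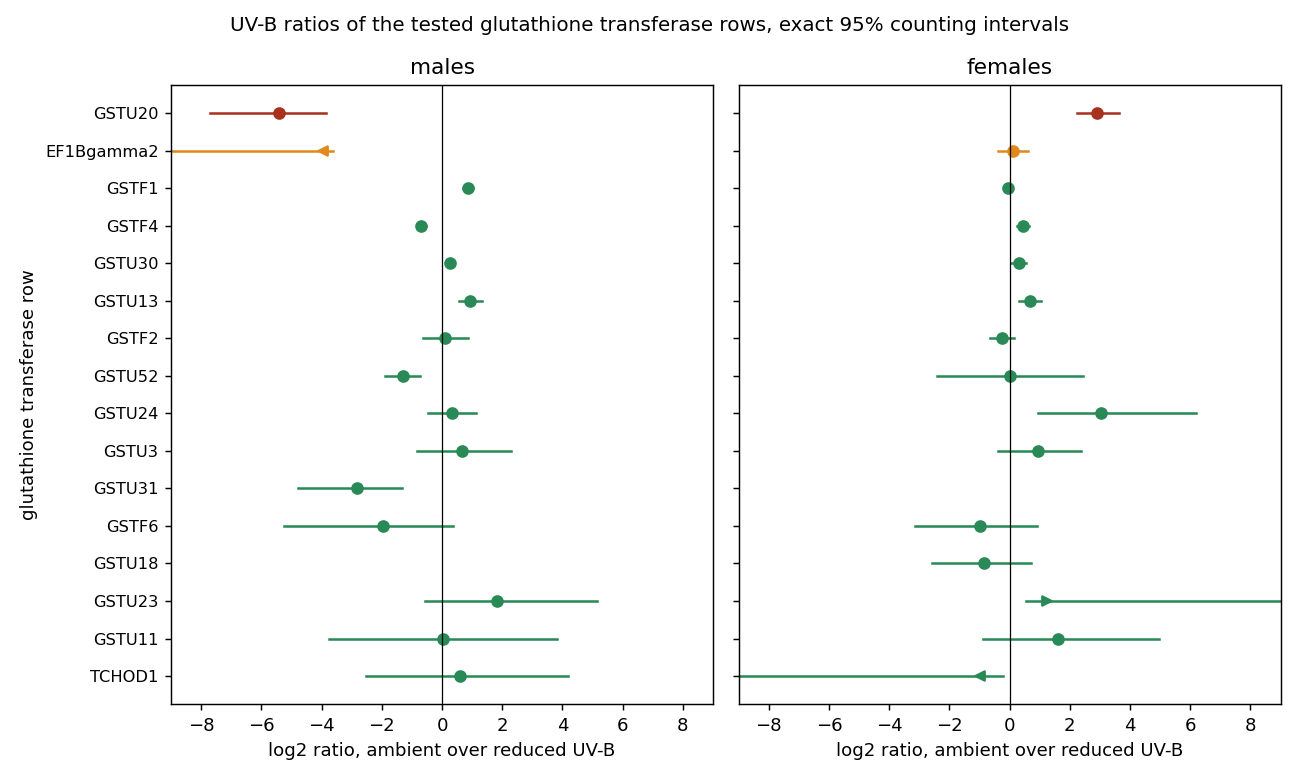
Log2 ratio of ambient over reduced UV-B (x axis) in males (left) and females (right), with exact 95% counting intervals. The y axis holds the 14 other tested glutathione transferases by total count, with EF1Bgamma2 and GSTU20 placed above them whatever their counts. Triangles are ratios with 3 tags set in place of 0, with an open-ended interval. GSTU31 in females and GSTU18 in males have no point, since a library was at 0 and the other had no more than 3 tags. GSTU20 lies at -5.42 in males and 2.91 in females.

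In the comparison of the sexes, under reduced UV-B 2 of the 14 were called higher in females, GSTF1 and GSTF2 (Potri.002G015200.1), where 4.66% of tested transcripts were. Another 5 were called lower in females, as GSTU20 was low there, against 5.90% of tested transcripts. These were GSTU30, GSTU52, GSTU31, GSTU24 and GSTF4. Under ambient UV-B 1 was called higher, GSTF2 with a log2 ratio of 1.56 (interval 0.99 to 2.16), against 3.66%, and 2 lower, GSTU30 and GSTU52, against 7.69%. Those shares are 393 higher and 826 lower over all transcripts, and with TMM scaling 551 and 624. GSTU30 was lower in females by a log2 ratio of -1.79 under reduced and -1.77 under ambient UV-B, and GSTU52 by -4.56 and -3.25. In these 2 tau genes the sexes were ordered the same way at both light levels, unlike GSTU20.

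The pair's share of the glutathione transferase tags followed these changes. GSTU20 and EF1Bgamma2 made up 6.20% (exact binomial 95% interval 5.35% to 7.14%) of the 2886 tags of all 23 genes for males in reduced UV-B. For males in ambient UV-B the share was 0.103% (0.0212% to 0.30%) of 2920. In females it was 3.64% (2.94% to 4.44%) of 2529 under reduced and 8.18% (7.20% to 9.25%) of 2824 under ambient UV-B. The other 21 genes summed to 632 and 693 CPM in males and to 555 and 600 CPM in females. In males this sum joined opposite moves, with GSTF1 going from 129 to 234 CPM and GSTF4 from 231 to 143 CPM. Tau class genes without GSTU20 summed higher under ambient UV-B, from 262 to 306 CPM in males and from 88.1 to 123 CPM in females. The male sum did not stand for the whole class. GSTU30 went from 203 to 246 CPM and GSTU13 from 19.6 to 37.6, while GSTU52 went from 21.5 to 8.79 and GSTU31 from 6.77 to 0.951. The male difference was also about the size of the TMM shift, -0.21 on the log2 scale. Within the 16 tau class genes GSTU20 took 22.5% (19.5% to 25.8%) of tags under ambient UV-B in females and 0.232% (0.0479% to 0.677%) under the same light in males.

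GSTU13 (Potri.008G175100.1), another tau class transferase, has the identifier that follows that of GSTU20 and the same gene ontology function. It was named after its values were seen. It had 84 and 158 tags in males, a log2 UV-B ratio of 0.94 (interval 0.55 to 1.34), and 102 and 160 in females, 0.67 (0.30 to 1.04). It was thus above 1 in ratio in both sexes, while GSTU20 was far below in males. The sources used here do not say how tags shared by near-identical tau class genes were assigned, and tags of GSTU20 and its closest relatives may be split between them. The genes whose identifiers stand next to that of EF1Bgamma2, both described as predicted proteins, were present in males under ambient UV-B. Potri.004G226200.1 had 9 tags there and 10 in males under reduced UV-B, and Potri.004G226400.1 had 127 and 62. The next identifier out on the side of the former, Potri.004G226100.1, named after its values were seen, was listed at 0 there, as EF1Bgamma2 was. That predicted protein had 4 tags in males under reduced UV-B, and 14 and 6 in females under reduced and ambient UV-B.

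The wider glutathione pathway was thinly described in the table. Of 3 glutathione metabolism genes 2 were tested, and 0 were called with UV-B in either sex, where 1.46% to 2.46% of tested transcripts were called in each direction. Glutathione reductase (Potri.015G037800.1), which returns oxidised glutathione to its reduced form, had 114 and 215 tags in males, a log2 ratio of 0.94 (interval 0.61 to 1.28). In females it had 275 and 199 tags, a log2 ratio of -0.44 (-0.71 to -0.18), so its ratios were opposite in sign to those of GSTU20 in both sexes. It was called higher in females than in males under reduced UV-B, with 1.23. Glutathione peroxidase (Potri.014G138800.2), which reduces peroxides, had 14 and 24 tags in males and 20 and 23 in females. The single tested conjugate transporter, a multidrug resistance-associated protein (Potri.003G182600.1), had 0, 7, 9 and 9 tags, males before females and reduced before ambient UV-B, without a call.

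No description other than that of EF1Bgamma2 matched the pattern for elongation factors 1 and 2. A list of 63 other tested transcripts with the gene ontology function of EF1Bgamma2, translation factor activity, was added after the data were seen. It also holds argonaute proteins and a transcription factor, and it was used with no test. In males 5 of the 63 were at least 2-fold higher and 5 at least 2-fold lower under ambient UV-B, counting any listed 0 against a higher count as 2-fold, against 17.4% and 15.6% of all tested transcripts. Their log2 ratios ran from -1.97 to 1.61, with counts of 0 at 3 tags. The value of EF1Bgamma2 by the same rule, -3.97, lay below that range, but the gene was chosen by its counts. The low end was itself a 0 set at 3, against 12 tags in males under reduced UV-B (Potri.013G057000.2). By this rule, listed transcripts at 0 with so few tags could not reach a ratio as low as that of EF1Bgamma2. In males under ambient UV-B 4 of the 63 were at 0, against 1 in males under reduced UV-B and 2 in each female library. The summed level of the 96 listed genes of this function, EF1Bgamma2 left out, was 1059 CPM in males under reduced and 1438 under ambient UV-B, and 1452 and 1501 in females.

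**Figure D3:**
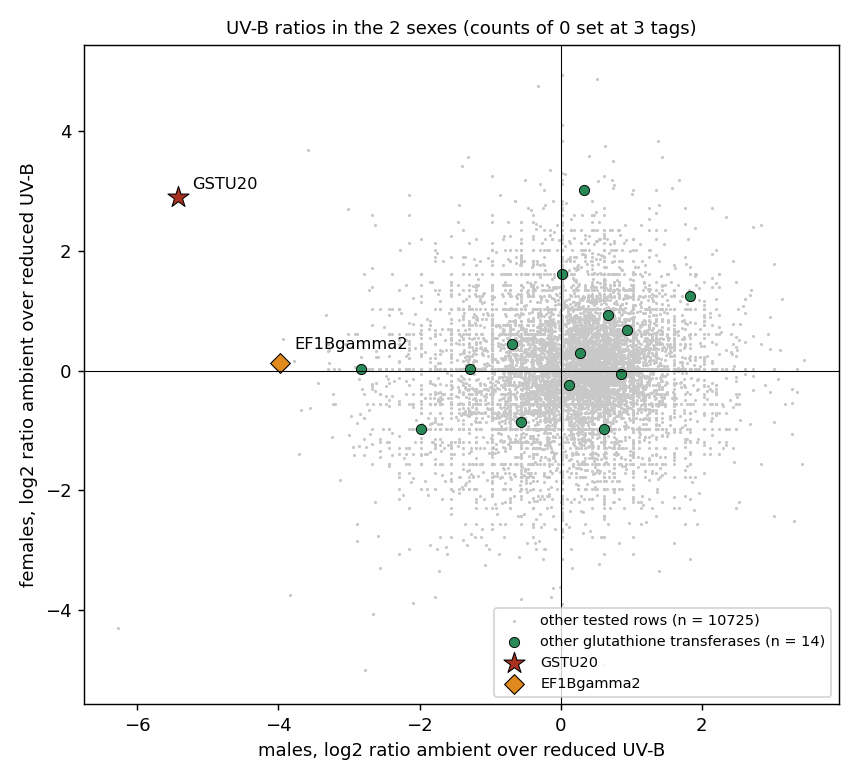
Log2 ratio of ambient over reduced UV-B in males (x axis) and in females (y axis) for the 10741 tested transcripts. Counts of 0 are set at 3 tags, so that transcripts at 0 in both libraries lie near 0. A 0 against fewer than 3 tags is shown with its direction turned round. The star is GSTU20, at -5.42 and 2.91, the diamond is EF1Bgamma2, at -3.97 and 0.12, and green points are the 14 other glutathione transferases.

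Few transcripts had the pattern of either gene over the 4 libraries. Likeness was the largest difference, over the 4 libraries, between log2(CPM + 1) values centred on each gene's own mean. For GSTU20, 0 of the other transcripts with at least 50 counts in the highest library came within 1 on this scale. The 5 nearest among 461 such transcripts with an informative description were a Ycf1-like gene (Potri.011G073900.1) at 1.44, the RNA-dependent RNA polymerase named above at 1.55 and an RNA polymerase beta subunit (Potri.013G142200.1) at 1.56. An ATP synthase CF0 C chain, with chloroplast in its description (Potri.005G154900.1), and a histone H2 (Potri.010G230700.1) followed, both at 1.57. The polymerase of gene silencing alone among these 5 shared with GSTU20 the higher value under ambient UV-B in females.

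For EF1Bgamma2, 5 transcripts came within 1, of which 1 was described, a SAUR family protein (Potri.001G306300.1) with a largest difference of 1.0. SAUR genes are early auxin-responsive genes. It had 26 and 4 tags in males under reduced and ambient UV-B and 103 and 85 in females. Next came the Ycf1-like gene at 1.22, a nitrate transporter of the POT family (Potri.014G157400.1) at 1.34, a cytochrome P450 (Potri.016G050100.1) at 1.38 and ribosomal protein S3 (Potri.012G047500.1) at 1.39. All 5 were lowest in males under ambient UV-B, which follows from their choice by likeness to EF1Bgamma2. None of the 5 was listed at 0 there.

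**Figure D4:**
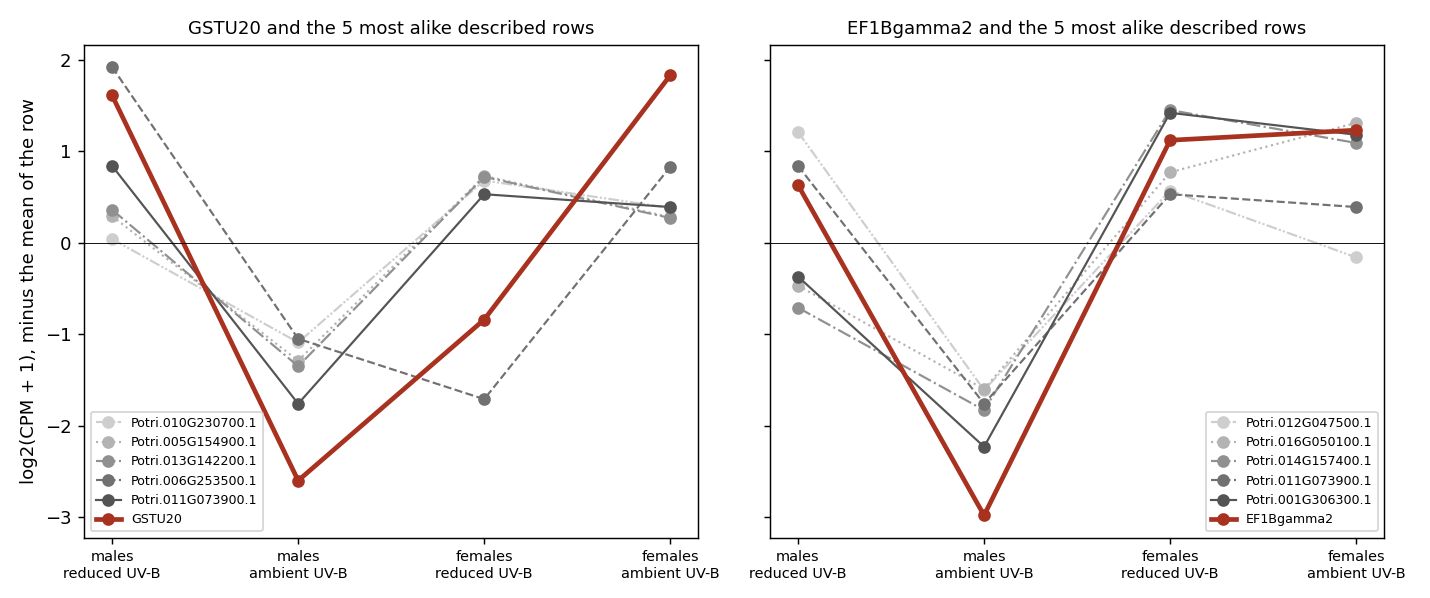
Log2(CPM + 1) minus the mean of the gene (y axis) in the 4 libraries (x axis) for GSTU20 (left) and EF1Bgamma2 (right), in red, and for the 5 most alike described transcripts of each, in grey. In males under ambient UV-B the red lines reach -2.60 and -2.98, below every grey line.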

How the data were processed

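Leaf RNA was counted in 4 libraries by 3′ tag sequencing after NlaIII and MmeI digestion, per the labels' protocols. Tags were copied by PCR and libraries ran on separate flow cell lanes, so lane and group cannot be told apart, and tags are not fully independent molecules. The authors deposited raw tag counts per transcript, with each library total in its column header, along with values headed TPM. The latter are CPM as deposited, without a length correction, and differed from recomputed CPM by at most 0.005. How tags were assigned and the genome build: not given in the sources used here. Coordinates and sequences are not used here.

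Groups were taken from the labels, which also speak of extraction from 3 biological replicates but give a single pooled library for each group. CPM, Poisson intervals, exact conditional intervals of ratios and the exact binomial test used scipy 1.17.1. A count of 0 was set at 3 tags in ratios. In medians and ranges over lists, this rule turns round the direction of a 0 against fewer than 3 tags. Transcripts with at least 10 counts over the 4 libraries were tested, and p-values were adjusted by Benjamini-Hochberg over all 10741. The edgeR quasi-likelihood test needs replicates and was not run. The alternatives were TMM factors (edgeR 4.0.16), DESeq2 1.42.0 size factors, the sum of listed counts as total, other count minimums, 0.5 added to counts, lists from descriptions alone, and an assumed coefficient of variation of 0.3. Tests and intervals were checked on simulated Poisson counts, which hold no spread between pools. For the listed 0 of EF1Bgamma2 that check used a mean of 3 tags, so it does not cover an unlisted single tag.

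The 2 genes and the lists were chosen with earlier results of these data known. Genes were named by rule: called glutathione transferases and the 3 with the highest count, the 2 highest and up to 2 called per direction of each other list, and the 5 described transcripts most like each gene. Exceptions are stated. The pattern for conjugate transporters missed 20 transcripts worded as multidrug resistance protein ABC transporter family. The phloem marker pattern matched 0 transcripts.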

Additional observations from a re-analysis of the deposited data

Results flagged for a closer look

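The UV-B ratio of GSTU20 had opposite directions in the sexes, lower in the male and higher in the female library under ambient UV-B. The female ratio over the male ratio was 8.33 on the log2 scale. The UV-B ratio of EF1Bgamma2 was also below 1 in males. In females its ratio was slightly above 1 and within counting error of 1. The female over male ratio of EF1Bgamma2 was 4.10 on the log2 scale, with 3 tags in place of 0. Its exact lower limit of 3.66 takes the listed 0 as a true 0. With 1 library per group, neither difference between the sexes was tested against a spread between pools.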

How the results depend on the processing

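The 10 log2 ratios of GSTU20 and EF1Bgamma2 stayed within their counting intervals with TMM factors, DESeq2 size factors, the sum of listed counts and 0.5 added to each count, and none changed sign. The ratios of EF1Bgamma2 against males under ambient UV-B depend on the value given to a count of 0: with 0.5 added, the male UV-B ratio was -6.57 in place of -3.97.

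When pools were assumed to vary with a coefficient of variation of 0.3 (edgeR exact test), the 2 other glutathione transferases called lower with UV-B in males became 0. Under reduced UV-B, the 2 called higher in females became 0 and the 5 lower became 1, GSTU52. Under ambient UV-B, the 1 higher and 2 lower became 0 and 0. The glutathione reductase call also ended. With a minimum of 50 counts the lower calls in males became 1, since GSTU31 was no longer tested.

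Over all transcripts, male calls of 264 higher under ambient UV-B became 117 with TMM factors, 125 with size factors and 117 with the sum of listed counts, while the 157 lower became 232, 225 and 230, so that the balance turned from more higher to more lower. The 393 called higher in females under ambient UV-B became 599 with the sum of listed counts, and the 826 lower became 576. With the assumed variation, higher and lower calls became 0 and 5 for UV-B in males, 3 and 11 in females, 28 and 57 between the sexes under reduced UV-B, and 46 and 77 under ambient UV-B.

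No paired analysis was possible because each group had 1 library, and leaving out single libraries was not run. The comparison of females by UV-B, and that of the sexes under reduced UV-B, do not use males under ambient UV-B, the library with the most transcripts at 0. Depth limits ratios that rest on the 3 tags of GSTU20 or the listed 0 of EF1Bgamma2.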
